A study of Arabidopsis thaliana with 8 samples.

Results

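The comparison is the difference between 2 salt responses in leaves of Arabidopsis thaliana: the change with 100 mM NaCl in the transgenic line M6PR minus the same change in the wild type Col. It draws on all 8 arrays of the series and on 22746 of the 22810 probe sets, those left after the 64 array controls were set aside. The groups are called Col 0 mM and Col 100 mM for the wild type, and M6PR 0 mM and M6PR 100 mM for the transgenic line, after the NaCl they received, and each held 2 replicate pots. All plants were 20 days old, and the salted ones had been watered and sprayed from day 14, for 6 days, with NaCl in diluted Hoagland nutrient solution, raised in steps. Each array holds RNA pooled from the leaves of many seedlings of a pot, so the p-values measure the spread between pots.

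M6PR plants carry the mannose-6-phosphate reductase of celery, and the series title describes them as mannitol-producing and salt-tolerant. The promoter and the number of independent lines are not given in the sources used here, and expression of the transgene was not analysed here. For the M6PR plants the sample descriptions give Ws, a different accession from the Col wild type, so accession and transgene cannot be told apart. The labels also say that the 4 Col arrays belong to another series. A shift common to all Col arrays cancels in the interaction, because it enters both salt levels, but one that differs between the salt levels does not.

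As background, salt reaches leaves as osmotic stress and as sodium. Leaf cells answer through abscisic acid, calcium and kinase signals, through transcription factors of the zinc finger, WRKY and AP2/ERF families, and through changes in the cell wall and in sugar use. Mannitol is a sugar alcohol that celery stores and that serves as a compatible solute and a scavenger of hydroxyl radicals. A second set of leaf genes responds to falling sugar supply or darkness through SnRK1-type kinases, and it overlaps in function with salt and abscisic acid signalling. A line can therefore differ in its salt response because a gene responds less, or because its level already differs before salt is given, and an interaction value alone does not separate these forms.

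Values are the deposited log2 signals. An interaction is called when its Benjamini-Hochberg adjusted p over all 22746 probe sets was under 0.05 in limma, a linear model with variances moderated across probe sets. A negative interaction means that the salt response was less positive in M6PR than in Col. Group means below log2 4 are treated as background. A size against the background level is the size after such means are set to 4, and any printed size beyond it is not settled. Precision is limited by having 2 arrays a group, and in pooled leaves fewer cells of a type and less RNA per cell cannot be told apart.

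Array medians ran from 5.01 to 5.31, and 27.9% to 29.2% of probe sets sat at the lowest value, 2.15. Replicates differed by a root mean square SD of 0.172 in Col 0 mM, 0.248 in M6PR 0 mM, 0.404 in Col 100 mM and 0.426 in M6PR 100 mM. Across probe sets, the array labelled M6PR 100 mM replicate 1 had r 0.983 with an unsalted M6PR array (replicate 1) and 0.982 with its own replicate. M6PR 100 mM replicate 2 and Col 100 mM replicate 2 had r 0.991 with each other, against 0.982 and 0.984 with their own replicates. For 384 probe sets the arrays other than M6PR 100 mM replicate 1 split by salt, and it fell with the salted ones in 50 (13.0%). By the same measure the unsalted M6PR 0 mM replicate 2 fell with the salted ones in 19 of 59 (32.2%). Col 100 mM replicate 1, left out together with M6PR 100 mM replicate 1 in a setting below, did so in 33 of 35 (94.3%). Calls without M6PR 100 mM replicate 1 are given below for some forms, not for all, and for the named genes that lost theirs. A gene counts as measured where the annotation used matched it to a probe set of its own. That annotation gave no gene for 8730 probe sets, so a gene not measured may still be on the array. Of the leaf markers 1 of 6 was measured, RCA (Rubisco activase), at 14.5 to 14.8 on all arrays. Of the root markers 1 of 6 was measured, EXPA7, at or near the lowest value (2.15 to 2.37). Of the guard cell markers 2 of 4 were measured. AT1G22690 (GC1) lay at 9.66 and 9.98 in M6PR 0 mM and between 8.17 and 8.90 on the other 6 arrays, whereas FMA lay between 5.59 and 6.38 with overlapping groups. The part of guard cells in the results was not tested, and no flower or seed marker was matched to a probe set.

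The salt response differed between the lines in 330 probe sets, 1.45% of those tested. It was less positive in M6PR in 212 (0.932%) and more positive in 118 (0.519%), and 4161 had an unadjusted p under 0.05. Centring the arrays on their medians shifted the median interaction over all probe sets to 0.20 and gave 1022 calls, 552 less and 470 more positive. All 330 kept their sign when any of the 8 arrays was left out, and 70 of them (45 less and 25 more positive) kept their call each time, among them 14 of the 36 called genes that the naming rule picked. Of the 330, 162 belonged to 1 gene, and 47 lay below the background level in every group. The balance between directions rested on single arrays: without Col 0 mM replicate 1 the calls were 116 less and 330 more positive, without Col 0 mM replicate 2 they were 122 and 450, and without M6PR 100 mM replicate 2 they were 913 and 1321.

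The calls were sorted by the group means, with a change meaning at least 1 log2 unit. There were 92 induced in Col only, of which 70 were already at least 1 unit higher in unsalted M6PR than in unsalted Col. A further 56 were lowered in Col only, 47 of them already low in unsalted M6PR. Opposite responses numbered 43, and 35 changed in M6PR only. In 1 probe set both lines changed in the same direction (1.4% of all probe sets did), and in the remaining 103 neither line's response reached 1 unit (79.8% of all). Over all probe sets tested, with no requirement of a call, 8.22% were induced in Col only, 2.02% were also already high in unsalted M6PR, 6.72% were lowered in Col only, 2.62% were also already low, 1.52% had opposite responses and 2.35% changed in M6PR only. The forms restate the means that make up the interaction and carry no test of their own.

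**Figure D1:**
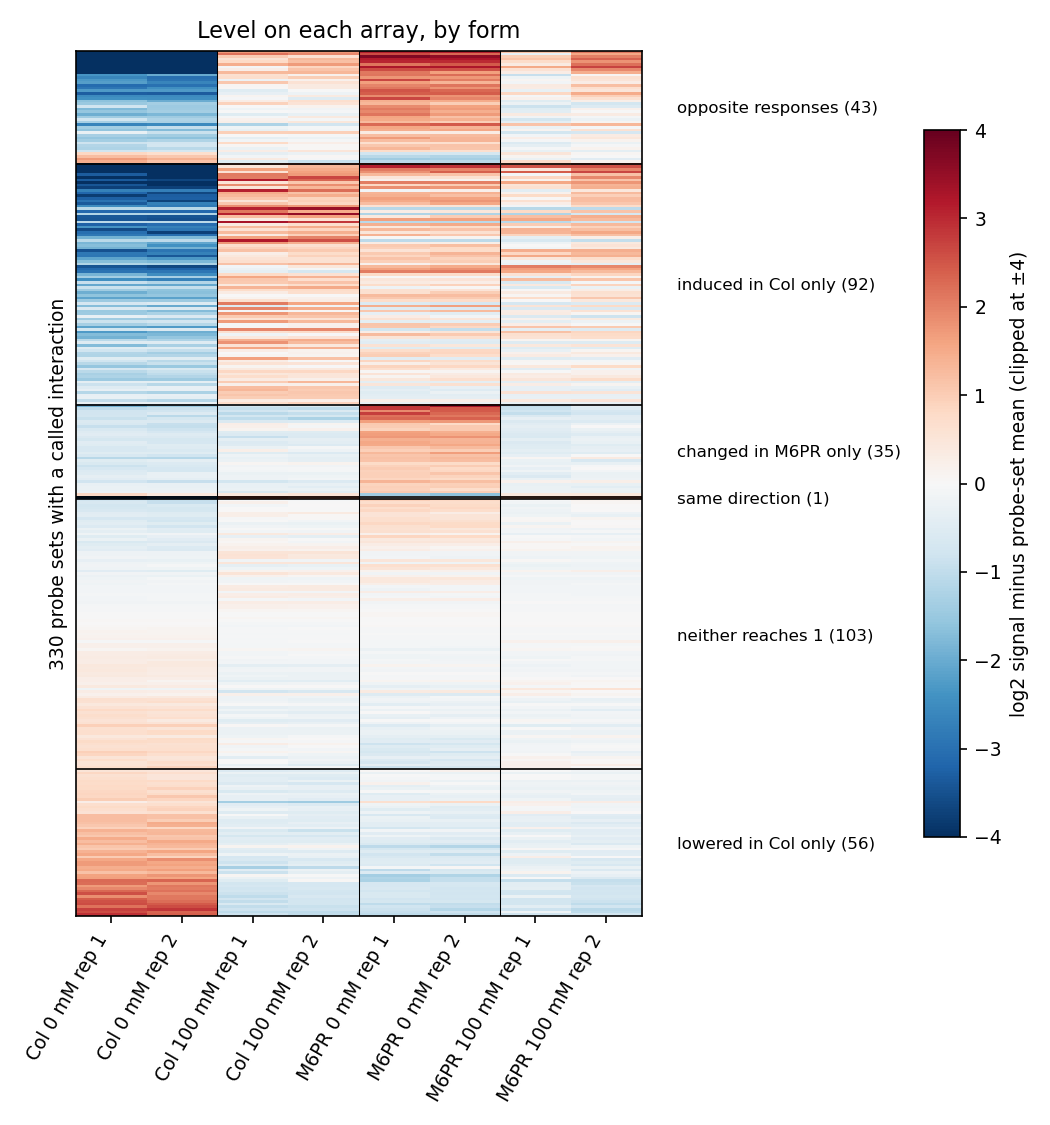
Heat map of the 330 probe sets with a called interaction (rows, grouped by form) on the 8 arrays (columns); colour is the log2 signal minus the probe set's mean over the arrays, clipped at 4 units either way. In the 92 probe sets induced in Col only the unsalted Col arrays are low and the other 6 arrays mostly high, in most of the 43 with opposite responses (all but the lowest rows of that block) the unsalted M6PR arrays are high and the unsalted Col arrays low, and in the 35 changed in M6PR only the same 2 arrays stand apart.

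Among the forms with a response of at least 1 unit, the most frequent in this fit was a gene low in unsalted Col and at about the same high level on the other arrays. Over the 70 probe sets induced in Col only and already high in unsalted M6PR, the median signal was 6.59 and 6.45 on the Col 0 mM arrays and 9.78 and 9.96 on the Col 100 mM arrays. It was 9.94 and 10.16 in M6PR 0 mM, and 9.69 and 9.95 in M6PR 100 mM. All 70 passed the test for salt in Col (5.24% of all probe sets did), none passed it for salt in M6PR (0.171%), and 1 differed between the lines under salt (0.136%). All 70 also differed between the lines without salt (7.03%). These contrasts share arrays with the interaction, so the counts describe the form. The order of the forms depended on single arrays: without M6PR 100 mM replicate 2 there were 457 opposite responses against 131 of this form, and without Col 100 mM replicate 2 there were 241 lowered in Col only against 66. Without M6PR 100 mM replicate 1, 39 of the 70 interactions were still called, and 25 were without both that array and Col 100 mM replicate 1, the 2 arrays doubted in an earlier look at these data.

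AT5G61590 encodes DEWAX, an AP2/ERF transcription factor that represses cuticular wax synthesis. It read 7.59 and 7.49 in Col 0 mM, 11.29 and 11.58 in Col 100 mM, 12.63 and 12.60 in M6PR 0 mM, and 12.53 and 12.27 in M6PR 100 mM. The 2 unsalted Col arrays were low and the other 6 were high, with no overlap. The response was 3.90 in Col and −0.22 in M6PR, an interaction of −4.11 (SE 0.19, adjusted p 0.0107) that stayed called whichever array was left out.

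STZ, a zinc finger repressor induced by salt and cold, read 4.69 and 5.05 in Col 0 mM, 11.20 and 11.84 in Col 100 mM, 9.63 and 9.78 in M6PR 0 mM, and 10.00 and 11.07 in M6PR 100 mM. The unsalted M6PR arrays thus lay nearer to salted than to unsalted Col. STZ rose by 6.65 with salt in Col, against 0.83 in M6PR, which did not pass the test, and the interaction was −5.82 (SE 0.62, adjusted p 0.0410). It lost the call without any 1 of 6 arrays, with adjusted p up to 0.121.

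CML38, a calmodulin-like calcium sensor, went from 4.80 and 4.79 in Col 0 mM to 9.18 and 8.97 in Col 100 mM. It read 9.72 and 9.67 in M6PR 0 mM, and 8.11 and 9.29 in M6PR 100 mM. The unsalted M6PR arrays were the highest of all 8, and the interaction was −5.27 (SE 0.57, adjusted p 0.0414). Its response in M6PR, −0.996, sits at the edge of the form, next to the −1.01 of AT1G25400, which is counted among the opposite responses.

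ATPMEPCRB, a pectin methylesterase that modifies wall pectin, read 5.37 and 4.89 in Col 0 mM, 10.01 and 9.70 in Col 100 mM, 9.88 and 9.94 in M6PR 0 mM, and 8.70 and 9.79 in M6PR 100 mM. Its interaction was −5.39 (SE 0.59, adjusted p 0.0415). Salted Col and unsalted M6PR overlapped, and M6PR 100 mM replicate 1 was lower than its replicate. That array was the lower of its pair in 54 of the 70 probe sets of this form.

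The other named genes of this form are known here by locus. AT2G25735 had an interaction of −7.12 (SE 0.71, adjusted p 0.0367), with unsalted Col below the background level, so that the difference is at least 5.75 in size against that level (−5.75). AT1G76600 had −6.23, AT3G10930 −5.75, AT5G19120 −5.67, AT1G69890 −5.41, AT3G25600 −3.23 and AT1G27100 −2.29. Against the background level AT3G10930 had −4.06 and AT1G69890 −4.92. AT5G19120 read 6.14 and 5.78 in Col 0 mM, 11.00 and 11.51 in Col 100 mM, 12.48 and 12.46 in M6PR 0 mM, and 11.99 and 12.20 in M6PR 100 mM. It (adjusted p 0.0139), AT3G25600 (0.0148) and AT1G27100 (0.0111) stayed called whichever array was left out, whereas AT3G10930 (adjusted p 0.0590) and AT1G69890 (0.0580) lost their calls without M6PR 100 mM replicate 1.

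Some members with known cell surface roles, chosen after their values were seen, had the same form. TET8, a tetraspanin of the plasma membrane and of secreted vesicles, read 9.21 and 9.19 in Col 0 mM, 12.01 and 11.94 in Col 100 mM, 12.05 and 11.88 in M6PR 0 mM, and 11.00 and 11.44 in M6PR 100 mM. Its interaction was −3.52 (SE 0.23, adjusted p 0.0176). THE1, the receptor kinase THESEUS1 that senses the state of the cell wall, read 6.74 and 6.44, then 7.94 and 8.32, in Col without and with salt, and 9.90 and 10.08, then 9.0 and 9.24, in M6PR (interaction −2.41, adjusted p 0.0437, and 0.0885 without M6PR 100 mM replicate 1). For THE1 both M6PR groups lay above both Col groups. SEC15B, a subunit of the exocyst that tethers secretory vesicles, had −1.97 (adjusted p 0.0410).

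**Figure D2:**
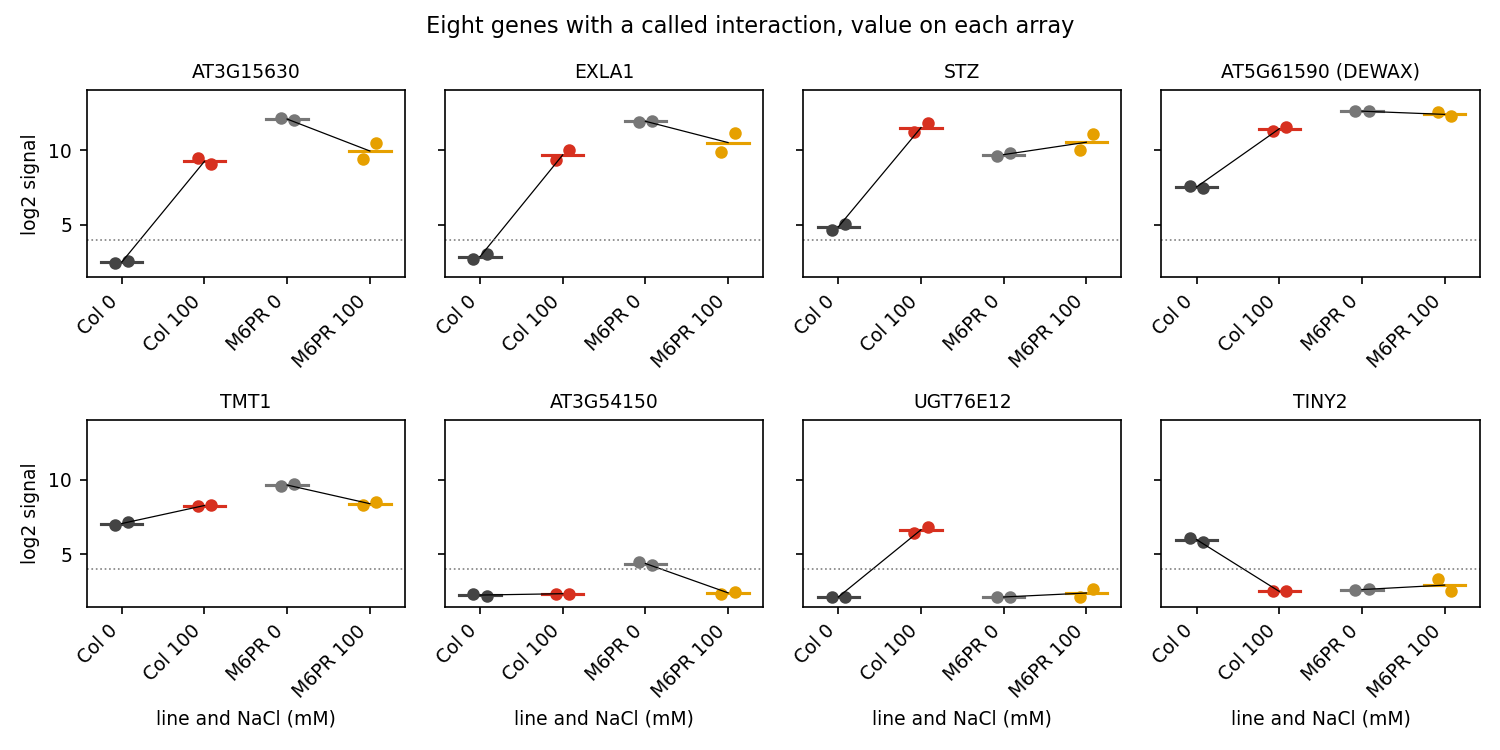
Log2 signal of 8 genes on each array (points; bars are group means; thin lines join the salt levels of a line; the dotted line is the background level of log2 4). AT5G61590 and STZ are low only in unsalted Col, AT3G15630, EXLA1 and TMT1 have a higher mean with salt in Col and a lower one in M6PR (a difference that did not pass the test in M6PR, with adjusted p of 0.170, 0.423 and 0.0516), AT3G54150 is highest in unsalted M6PR, UGT76E12 is high only in salted Col, and TINY2 is high only in unsalted Col.

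The remaining 22 probe sets induced in Col only were not already high in unsalted M6PR. Their median signal was 2.34 and 2.35 in Col 0 mM, 4.92 and 4.59 in Col 100 mM, 2.33 and 2.21 in M6PR 0 mM, and 2.36 and 2.45 in M6PR 100 mM. They were dim, and 5 of them lay below the background level in every group. How many kept their call without M6PR 100 mM replicate 1 is not given here. Among them, and chosen after their values were seen, UGT76E12, a UDP-dependent glucosyltransferase, was at the lowest value of 2.15 on the 4 unsalted arrays. It read 6.45 and 6.86 in Col 100 mM, against 2.15 and 2.68 in M6PR 100 mM (interaction −4.24, SE 0.32, adjusted p 0.0255, or −2.65 against the background level). AT5G33370 read 2.15 without salt in both lines, 6.51 and 6.04 in Col 100 mM and 2.15 and 2.45 in M6PR 100 mM (interaction −3.98, adjusted p 0.0179). WES1, an enzyme of the GH3 type that conjugates hormones to amino acids, read 4.72 and 4.23 in Col 100 mM and at most 2.24 on the other 6 arrays (interaction −2.35, adjusted p 0.0378, and 0.0814 without M6PR 100 mM replicate 1). For these 3 genes salted Col stood apart from the other 3 groups without overlap, but WES1 rose only a little above the background level there.

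Opposite responses were found in 43 probe sets, of which 39 had a higher mean with salt in Col and a lower one in M6PR. In 38 of the 39 unsalted M6PR lay at least 1 unit above unsalted Col. The median signal of the 39 was 5.75 and 5.69 in Col 0 mM, 8.95 and 8.69 in Col 100 mM, 10.26 and 10.03 in M6PR 0 mM, and 8.47 and 8.92 in M6PR 100 mM. The M6PR side rests on means: 39 of the 43 passed the test for salt in Col, but only 1 passed it for salt in M6PR. M6PR 100 mM replicate 1 was the lower of its pair in 36 of the 39, and 26 of the 43 were called without it.

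AT3G15630 had the largest interaction of the probe sets with 1 gene and a group above the background level. It read 2.45 and 2.57 in Col 0 mM, 9.47 and 9.04 in Col 100 mM, 12.16 and 12.01 in M6PR 0 mM, and 9.43 and 10.47 in M6PR 100 mM. Unsalted M6PR was the highest group, unsalted Col the lowest, and the salted groups overlapped. The interaction was −8.88 (SE 0.54, adjusted p 0.0148), at least −7.39 against the background level, and stayed called whichever array was left out. AT3G15450 followed the same order from a higher base, with 6.60 and 6.81 in Col 0 mM, 11.49 and 12.36 in Col 100 mM, 13.83 and 13.76 in M6PR 0 mM, and 11.82 and 13.16 in M6PR 100 mM (interaction −6.53, SE 0.77, adjusted p 0.0484).

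EXLA1, an expansin-like protein of the cell wall, read 2.70 and 3.04 in Col 0 mM, 9.34 and 10.04 in Col 100 mM, 11.90 and 11.97 in M6PR 0 mM, and 9.90 and 11.12 in M6PR 100 mM. Its interaction was −8.24 (SE 0.69, adjusted p 0.0288), at least −7.12 against the background level, and was called in 4 of the 8 fits that left out 1 array (adjusted p up to 0.0873). The salted groups overlapped, and the unsalted groups were 9.06 apart. AT1G25400 had an interaction of −6.37 (SE 0.59, adjusted p 0.0340), or −5.15 against the background level.

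TMT1, a transporter that loads sugars into the vacuole across the tonoplast, read 7.0 and 7.15 in Col 0 mM, 8.25 and 8.31 in Col 100 mM, 9.58 and 9.71 in M6PR 0 mM, and 8.31 and 8.50 in M6PR 100 mM. All its values were above the background level and each group's replicates lay within 0.2 of each other. The response was 1.21 in Col and −1.25 in M6PR, and the interaction of −2.46 (SE 0.13, adjusted p 0.0131) stayed called whichever array was left out.

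RALFL22 and ATL8, chosen after their values were seen, went the same way. RALFL22, a secreted peptide of the RALF family, read 8.11 and 7.94 in Col 0 mM, 9.41 and 9.58 in Col 100 mM, 11.13 and 11.24 in M6PR 0 mM, and 9.80 and 10.28 in M6PR 100 mM (interaction −2.61, SE 0.26, adjusted p 0.0373). Both M6PR groups lay above both Col groups. ATL8, a RING-type ubiquitin ligase, had an interaction of −3.33 (adjusted p 0.0341, and 0.0546 without M6PR 100 mM replicate 1), from 7.12 and 6.66 in M6PR 0 mM to 4.76 and 5.19 in M6PR 100 mM, while Col went from 3.65 and 3.84 to 5.17 and 5.15.

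The opposite order, a lower mean with salt in Col and a higher one in M6PR, was found in 4 probe sets. Only AT1G63850 among them had a single gene, and it read 8.11 and 7.93 in Col 0 mM, 6.75 and 6.90 in Col 100 mM, 5.77 and 5.65 in M6PR 0 mM, and 6.97 and 6.84 in M6PR 100 mM. The salted groups overlapped between the lines, and the unsalted groups lay on either side of them. Its interaction was 2.39 (SE 0.14, adjusted p 0.0148), and it stayed called whichever array was left out.

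**Figure D3:**
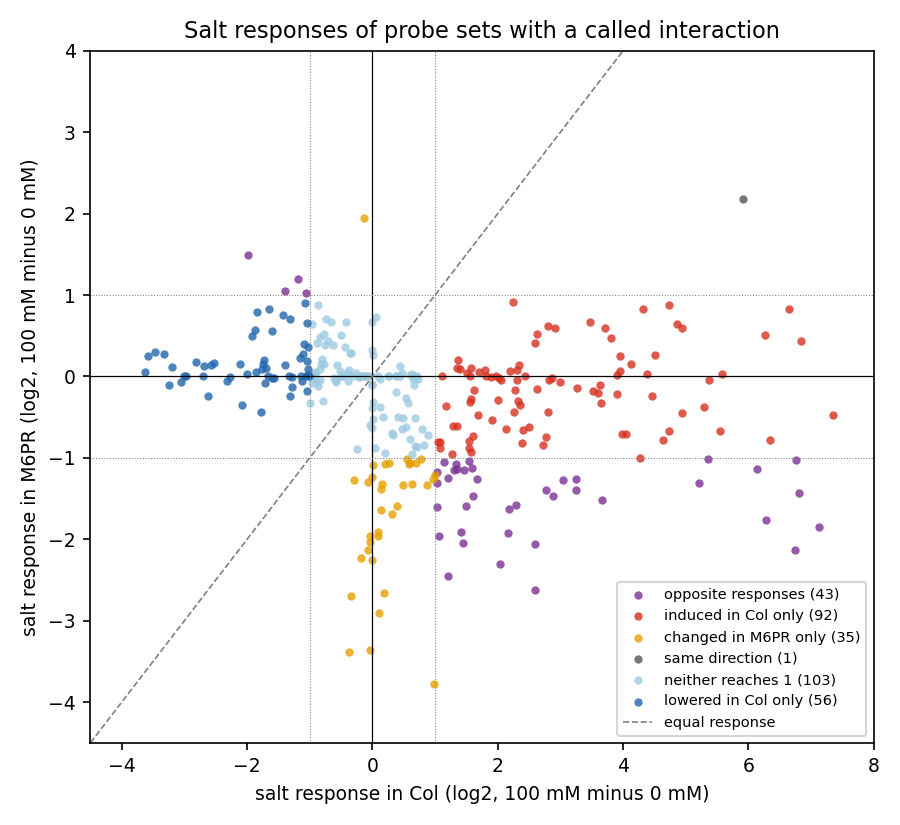
Salt response in M6PR (y axis) against that in Col (x axis), both as log2 differences of group means, for the 330 probe sets with a called interaction, coloured by form; the dashed line marks equal responses and the dotted lines 1 log2 unit. Points spread widely along the x axis and narrowly along the y axis: the median size of the response was 1.21 in Col and 0.423 in M6PR.

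In 35 probe sets the response reached 1 unit in M6PR only. In 34 of them it was a lower mean with salt, and all 34 lay at least 1 unit higher in unsalted M6PR than in unsalted Col. Their median signal was 7.40 and 7.47 in M6PR 0 mM and between 5.79 and 6.09 on the other 6 arrays. Of the 34, 19 passed the test for salt in M6PR, and 22 of their interactions were called without M6PR 100 mM replicate 1.

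AT5G62865 read 6.20 and 6.12 in M6PR 0 mM and between 2.95 and 3.56 elsewhere (interaction −2.85, SE 0.18, adjusted p 0.0163, or −2.16 against the background level). AT3G54150 read 4.48 and 4.30 in M6PR 0 mM and at most 2.51 elsewhere (−2.06, adjusted p 0.0163). All but 1 of its groups lay below the background level, and against that level its interaction was only −0.394. AT5G25440 read 9.59 and 9.66 in M6PR 0 mM and between 6.92 and 7.55 elsewhere (−2.05, adjusted p 0.0426), and its call was lost without M6PR 100 mM replicate 1 (0.0709). In each of these genes the 2 unsalted M6PR arrays stood above the other 6.

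MCCA, a subunit of the carboxylase that breaks down leucine, read 6.98 and 6.77 in Col 0 mM, 6.90 and 7.02 in Col 100 mM, 8.98 and 8.83 in M6PR 0 mM, and 6.84 and 7.15 in M6PR 100 mM. Its interaction was −2.00 (SE 0.20, adjusted p 0.0371), and of the 8 fits that left out 1 array it was called in 1. Without M6PR 100 mM replicate 1 its adjusted p was 0.05002, just above the threshold. AT1G25275, at −2.21, belonged here by a narrow margin, since its response in Col was 0.999. AT5G39020, chosen after its values were seen, had a small error, with 5.28 and 5.28, 5.59 and 5.60, 7.39 and 7.33, and 5.59 and 5.74 in the same order of groups (−2.01, SE 0.075, adjusted p 0.00683). The 1 probe set raised in M6PR only had no gene name.

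Of the 118 calls with a more positive response in M6PR, 56 were lowered in Col only, and 47 of these were already low in unsalted M6PR. The median signal of the 47 was 5.65 and 5.63 in Col 0 mM and between 2.77 and 3.03 on the other 6 arrays, which is below the background level. For the median member the loss with salt in Col thus ended in background, and its size beyond that level is not settled. Without M6PR 100 mM replicate 1, 24 of the 47 were still called, and without both doubted arrays 11 were.

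TINY2, an AP2/ERF transcription factor, read 6.13 and 5.85 in Col 0 mM, 2.53 and 2.53 in Col 100 mM, 2.61 and 2.69 in M6PR 0 mM, and 3.37 and 2.53 in M6PR 100 mM. Only unsalted Col was above the background level, and the interaction was 3.77 (SE 0.43, adjusted p 0.0441), or 1.99 against that level. UGT72B3, a UDP-dependent glucosyltransferase, read 5.65 and 5.18 in Col 0 mM and at most 3.0 elsewhere (2.71, adjusted p 0.0487), but the call was lost without M6PR 100 mM replicate 1 (0.0707) and without both doubted arrays (0.142). AT5G66740 read 5.19 and 5.08 in Col 0 mM and the lowest value of 2.15 on the other 6 arrays (2.98, SE 0.053, adjusted p 0.000683). At that shared lowest value its replicates in the other 3 groups did not vary at all. Against the background level the interaction of AT5G66740 was 1.13 and that of UGT72B3 1.42.

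AT5G11460 had an interaction of 3.13, AT3G15310, annotated as a pseudogene, 3.01, AT3G51330 2.99, AT5G41900 2.82 and AT2G39240 2.04. In these 5 genes, too, Col 0 mM was the only group with a mean above the background level. Against that level the interactions were, in the same order, 2.02, 1.16, 1.37, 0.965 and 0.162. AT3G51330 lost its call without M6PR 100 mM replicate 1 (adjusted p 0.0887). AT1G55265 was brighter, with 8.06 and 7.97 in Col 0 mM, 6.16 and 6.20 in Col 100 mM, 5.20 and 5.45 in M6PR 0 mM, and 6.39 and 5.84 in M6PR 100 mM (2.63, SE 0.29, adjusted p 0.0431). Its salted groups overlapped between the lines.

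In 103 called probe sets neither response reached 1 unit, 46 with a less and 57 with a more positive response in M6PR, and 35 of them were below the background level in every group. ELC, a component of the ESCRT-I complex that sorts ubiquitinated membrane proteins, read 7.06 and 7.04 in Col 0 mM, 7.78 and 7.75 in Col 100 mM, 8.47 and 8.59 in M6PR 0 mM, and 7.60 and 7.73 in M6PR 100 mM (−1.57, SE 0.086, adjusted p 0.0136), and it stayed called whichever array was left out. VPS2.1, a component of ESCRT-III chosen after its values were seen, had −1.05 (adjusted p 0.0426, and 0.0875 without M6PR 100 mM replicate 1).

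AT5G05750 had −1.58, AT5G24830 1.60, AT3G07940 1.32 and AT1G45230 0.80. Without M6PR 100 mM replicate 1, AT5G05750 (adjusted p 0.0593) and AT3G07940 (0.0556) lost their calls. AT1G45230 read 9.37 and 9.32 in Col 0 mM, 8.92 and 8.89 in Col 100 mM, 8.53 and 8.61 in M6PR 0 mM, and 8.92 and 8.93 in M6PR 100 mM. Its salted groups lay within 0.04 of each other while the unsalted groups were apart (SE 0.048, adjusted p 0.0148).

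Across the 330 probe sets the lines differed more without salt than with it. The median size of the difference between M6PR and Col was 1.55 without salt and 0.258 with salt, whereas over all probe sets tested these medians were 0.147 and 0.171. The difference was wider without salt in 281 of 330 (85.2%), against 60.6% of all probe sets tested. This depended on the salted arrays. Without M6PR 100 mM replicate 1 it was wider in 317 of 447 calls (70.9%, against 47.3% of all probe sets in that fit), and without M6PR 100 mM replicate 2 in 1118 of 2234 (50.0%, against 36.2%). The calls fell below the share of all probe sets without Col 100 mM replicate 1, with 200 of 501 (39.9%, against 46.3%), and without both doubted arrays, with 365 of 900 (40.6%, against 52.5%). In the last case the medians were 0.0687 without salt and 0.369 with it. The shares describe the calls of each setting, which are not the same probe sets.

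Gene lists group these genes by pathway. The lists were chosen with earlier results of these data known, so their counts and medians are a description and test nothing. Of 932 listed genes 153 were matched by the annotation to a probe set of their own, in 26 of 29 lists. The others may still be on the array, so the lists are covered only in part. The median interaction over all probe sets tested was 0. Among genes of sugar shortage and darkness 8 were measured, of which 3 were called less positive in M6PR (AT3G15630, AT3G15450 and MCCA), against 0.932% of all probe sets tested, and 0 more positive, against 0.519%. Their median interaction was −3.01, and 7 of 8 were below 0. EXO, a gene of leaf growth that responds to brassinosteroids, read 5.10 and 5.37 in Col 0 mM, 10.33 and 11.29 in Col 100 mM, 12.46 and 13.02 in M6PR 0 mM, and 11.02 and 12.38 in M6PR 100 mM, but its interaction of −6.61 missed the threshold (adjusted p 0.0551). AKINBETA1, a regulatory subunit of SnRK1, had −2.71 (adjusted p 0.0641), BZIP53, a transcription factor of amino acid breakdown, −1.49 (0.0560), and IVD, an enzyme of leucine breakdown, 0.15 (0.988). ATG8E, an autophagosome protein that is also in the autophagy list, had −3.30 (0.0584).

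Of 7 rapidly induced stress genes 2 were called, both less positive in M6PR (AT2G25735 and AT3G10930), against 0.932% of all probe sets tested. The interaction was below 0 in all 7, with a median of −4.71. AT4G29780 had −6.63 (adjusted p 0.0624), with 3.64 and 3.64 in Col 0 mM, 11.17 and 10.82 in Col 100 mM, 7.70 and 7.20 in M6PR 0 mM, and 7.24 and 9.10 in M6PR 100 mM. Among the 9 measured members of the calmodulin-like and touch list, CML38 was the only call, against 0.932% of all probe sets tested called less positive. The median was −1.96 and 7 were below 0, and genes outside the list were not counted. Of 3 stress zinc finger genes 1 was called (STZ), against 0.932% of all probe sets tested called less positive. Their median of −0.04 was the value of AT3G53600, which lay at or near the lowest value on all arrays (2.15 to 2.22). None of 6 WRKY transcription factors was called, with a median of −1.63 and 3 at an unadjusted p under 0.05, against 18.3% of all probe sets tested. WRKY22, of immune signalling, had −6.46 (adjusted p 0.0588), and it was called without either M6PR 100 mM array (0.0239 without replicate 1 and 0.00372 without replicate 2), which read 4.42 and 6.19.

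The abscisic acid and dehydration list had no call among 7 measured genes and a median interaction of −1.09. An unadjusted p under 0.05 was found for 2 of the 7, against 18.3% of all probe sets tested. The median response was 2.08 in Col and 1.36 in M6PR. The dehydrin gene LTI30 read 5.54 and 5.06 in Col 0 mM, 10.45 and 11.43 in Col 100 mM, 7.42 and 8.24 in M6PR 0 mM, and 9.05 and 10.51 in M6PR 100 mM. Its interaction was −3.69 (SE 0.95, adjusted p 0.158). Salted arrays were above unsalted ones in both lines, and the salted groups overlapped.

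Cell wall genes were mixed. Of 18 expansins 1 was called (EXLA1), against 0.932% of all probe sets tested called less positive, and the median was 0.15. Only 10 of the 18 reached the background level in any group. EXPA8 and EXPB1, which loosen walls of growing cells, had 4.59 (adjusted p 0.103) and 3.70 (0.0813), in the other direction from EXLA1. Of 9 xyloglucan endotransglucosylases 0 were called and 4 had an unadjusted p under 0.05, against 18.3% of all probe sets tested. Only 5 of the 9 reached the background level in any group. XTH18 had −6.10 (SE 1.7, adjusted p 0.176), with 3.66 and 7.07 on the M6PR 100 mM arrays, which lie further apart than its means of 6.94 in Col 100 mM and 5.37 in M6PR 100 mM.

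Genes of flavonoid and anthocyanin synthesis had interactions of the other sign. None of 9 was called, and 7 had an unadjusted p under 0.05, against 18.3% of all probe sets tested. No interaction was below 0, and the median was 2.94, against 0 over all probe sets tested. AT4G14090 read 10.29 and 10.61 in Col 0 mM, 6.74 and 8.13 in Col 100 mM, 4.18 and 4.15 in M6PR 0 mM, and 8.37 and 6.60 in M6PR 100 mM. Unsalted Col was the highest group, unsalted M6PR the lowest, and the salted groups overlapped (interaction 6.34, SE 1.1, adjusted p 0.0818). UF3GT, a glycosyltransferase of anthocyanins, had 5.01 (0.0866) and DFR, the reductase that leads to anthocyanins, 1.91 (0.389). On both M6PR 100 mM arrays AT4G14090 and UF3GT lay above unsalted M6PR, and replicate 1 was the higher of the 2.

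The other lists with at least 3 measured genes had no call. Their median interactions were 1.30 for 4 jasmonate genes, 0.91 for 8 glutamate receptor-like channels, 0.57 for 3 clock genes, 0.50 for 3 antioxidant enzymes, 0.17 for 8 autophagy genes, 0.14 for 8 nuclear photosynthesis genes, 0.07 for 6 genes of stomata, trichomes and the cell cycle, 0.06 for 13 glutathione S-transferases, and 0 for 5 sodium, potassium and proton transport genes and for 11 auxin response genes. In the same order 1, 4, 0, 1, 2, 2, 4, 4, 1 and 2 of their genes had an unadjusted limma p under 0.05, against 18.3% of all probe sets tested. List medians smaller in size than the shift of 0.20 under centring have no settled direction. The medians of 0 come from lists of mostly undetected genes. Only 1 of the 5 transport genes and 2 of the 11 auxin response genes reached the background level in any group. The GH3-type gene WES1, described above, was called but was not counted in the auxin response list. That transport gene, CHX20, had an interaction of 2.46 (adjusted p 0.198). Of the glutathione S-transferases 8 of 13 reached that level, and of the glutamate receptor-like channels 5 of 8. TRY, a repressor of trichome formation, had 4.76 (adjusted p 0.195), with 7.26 and 4.32 on the M6PR 100 mM arrays, and was called without either of them (0.0206 without replicate 1 and 0.00115 without replicate 2). WSD1, a wax ester synthase, was the only measured gene of its list. It read 5.92 and 5.63 in Col 0 mM, 5.49 and 5.53 in Col 100 mM, 2.15 and 2.16 in M6PR 0 mM, and 6.16 and 5.23 in M6PR 100 mM. Unsalted M6PR alone was low, and the interaction of 3.80 just missed the threshold (SE 0.46, adjusted p 0.0512).

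**Figure D4:**
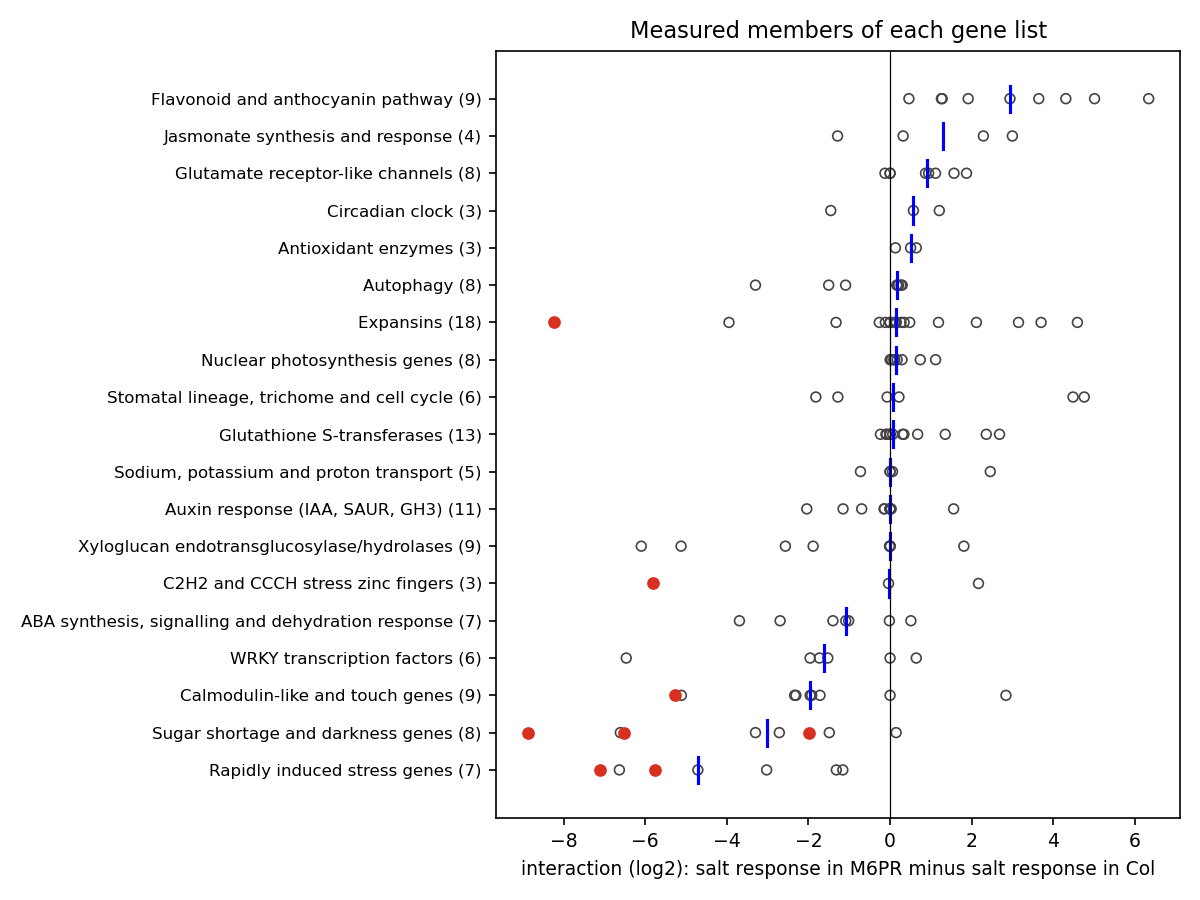
Interaction (log2, salt response in M6PR minus that in Col) of each measured gene in the lists with at least 3 measured genes; filled red points are called, open points are not, and blue bars are list medians. Medians run from −4.71 for rapidly induced stress genes to 2.94 for flavonoid genes, and the called points belong to 5 lists, all with negative values.

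**Figure D5:**
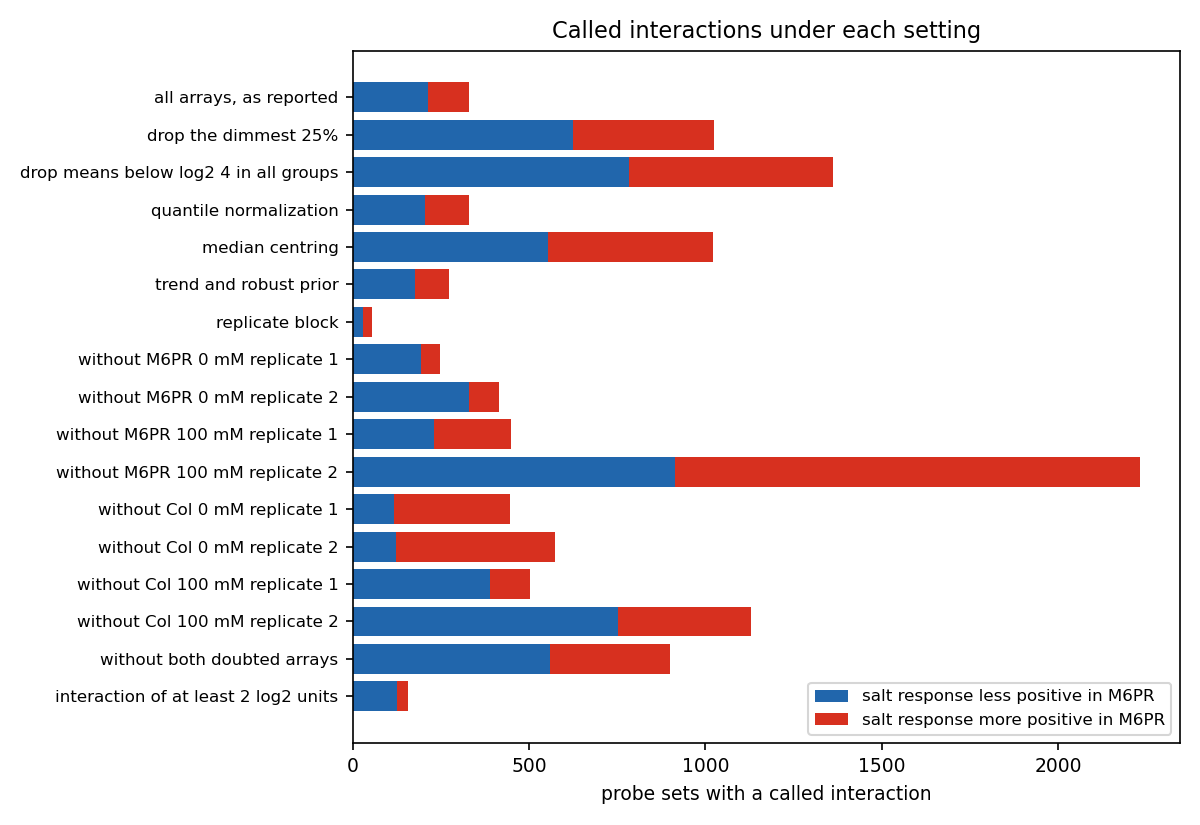
Number of probe sets with a called interaction under each setting, split by direction; the top bar is the fit reported here. The count ranges from 53 with the replicate number as a block to 2234 without M6PR 100 mM replicate 2, and the larger share changes to the more positive direction without either Col 0 mM array or without M6PR 100 mM replicate 2.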

How the data were processed

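Leaf RNA on 8 arrays was analysed from the log2 values that the authors deposited, 1 per probe set and array. Per the submitters' processing notes, GCOS and RMA were used; the background model is not given in the sources used here, nor whether other arrays entered the normalization. Groups were taken from the titles, and 0 columns of other samples were present. No further normalization was applied. The 64 controls were left out. Of 22746 probe sets, 13513 had 1 gene in the platform's annotation, 503 had several and 8730 had none, and 13436 of the first were matched by gene ID to RefSeq, which served for names. In lists the brightest probe set stood for a gene.

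Group means were estimated by limma 3.58.1 under R 4.3.3 (lmFit, contrasts, eBayes; residual degrees of freedom 4, prior 0.409), with two-sided tests and Benjamini-Hochberg adjustment over all probe sets. Named genes are, among called probe sets of 1 gene with a group mean of at least 4, the 8 largest interactions in each direction, the 4 or 8 largest of each form, the 6 largest in each direction called under every left-out array, and up to 3 called members of each list or, with none called, its largest; a subset is printed, and others are said to be chosen after their values were seen. The members, forms, lists and background level were chosen with earlier results of these data known. Alternatives were 2 filters on dim probe sets, quantile normalization, median centring, a trended robust prior, a replicate block, a minimum of 2 log2 units, leaving out each array, and leaving out 2 doubted arrays. For cysteine-rich and wall-associated receptor kinases and for aquaporins the annotation matched no gene to a probe set. The search pattern for plastid-encoded genes matched no locus, so that list was empty. Promoter motifs were not analysed here. No pseudocount was needed on the log2 scale.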

Additional observations from a re-analysis of the deposited data

Results flagged for a closer look

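Results were singled out here because the salt response differed between the 2 lines by the interaction test itself, which holds for 330 probe sets and for 36 of the 59 named genes. Groups of 2 arrays are too small to look for single arrays far from the others. The interactions, as log2 salt response in M6PR minus that in Col, are given without explanation. Means below the background level are not set to it here.

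Among named genes with a less positive response in M6PR, the largest in size were AT3G15630 (−8.88), EXLA1 (−8.24), AT2G25735 (−7.12), AT3G15450 (−6.53), AT1G25400 (−6.37) and AT1G76600 (−6.23). STZ (−5.82), AT3G10930 (−5.75), AT5G19120 (−5.67), AT1G69890 (−5.41), ATPMEPCRB (−5.39), CML38 (−5.27) and AT5G61590 (−4.11) followed. AT3G25600 (−3.23), AT5G62865 (−2.85), TMT1 (−2.46), AT1G27100 (−2.29), AT1G25275 (−2.21), AT3G54150 (−2.06), AT5G25440 (−2.05), MCCA (−2.00), AT5G05750 (−1.58) and ELC (−1.57) were smaller.

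With a more positive response in M6PR were TINY2 (3.77), AT5G11460 (3.13), AT3G15310 (3.01), AT3G51330 (2.99), AT5G66740 (2.98), AT5G41900 (2.82), UGT72B3 (2.71), AT1G55265 (2.63), AT1G63850 (2.39), AT2G39240 (2.04), AT5G24830 (1.60), AT3G07940 (1.32) and AT1G45230 (0.80).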

How the results depend on the processing

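None of the 59 genes picked by the naming rule reversed its direction under any setting tried. IVD, named above as a list member, went from 0.15 to −0.13 without both doubted arrays. With the replicate number as a block 53 interactions were called (24 more and 29 less positive in M6PR), 46 of them among the 330, and the forms held 11 induced in Col only, 6 already high, 2 opposite, 7 lowered in Col only and 6 already low; 33 of the 36 named calls were lost. The reported fit did not use the replicate numbers to pair the samples. Replicate differences correlated at 0.486 between the M6PR groups and from −0.151 to 0.081 between the others. The block setting gave both lines the same replicate effect, and a pairing within M6PR alone was not fitted. In the order all calls, more positive, less positive, induced in Col only, already high in unsalted M6PR, opposite, lowered in Col only and already low, dropping the dimmest 25% gave 1025, 401, 624, 286, 205, 183, 215 and 164. Dropping probe sets below 4 in all groups gave 1362, 578, 784, 376, 267, 254, 356 and 263. Centring gave 1022, 470, 552, 245, 178, 173, 285 and 191. Leaving out both doubted arrays (Col 100 mM and M6PR 100 mM replicate 1) gave 900 calls, 341 more and 559 less positive, with 228 induced in Col only, and 123 of the 330 were kept. Of all calls, 155 had an interaction of at least 2 log2 units (31 more, 124 less positive; 26 lowered in Col only, 26 already low). Leaving out each array gave 248 to 2234 calls, 56 to 1321 more positive, 116 to 913 less positive, 24 to 336 induced in Col only, 17 to 131 already high, 9 to 457 opposite, 19 to 322 lowered in Col only and 15 to 158 already low. The total moved by over 1.5 times without M6PR 100 mM replicate 2 (2234), Col 100 mM replicate 2 (1130), Col 0 mM replicate 2 (572) and Col 100 mM replicate 1 (501). Among the left-out arrays, the calls induced in Col only were fewest without M6PR 0 mM replicate 1 (24) and replicate 2 (27). Among the 36 named calls, 22 were lost on leaving out M6PR 0 mM replicate 1, and 8 were lost on leaving out M6PR 100 mM replicate 1. Quantile normalization (328) and a trended robust prior (273) stayed within 1.5 times. The dim filters test fewer probe sets, 17059 and 13527, whereas centring tested all 22746. The prior degrees of freedom were 1.52 and 2.54 under these filters, 1.93 under centring and 0.409 in the reported fit. What changed the counts was not tested.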
